A study of Canis lupus familiaris with 8 samples.

Results

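MDCK I cells that had received the siRNA construct Nfat5-2-siRNA were compared with cells that had received the control Neg-siRNA, both in hyperosmotic medium of 500 mOsm. MDCK I is an established epithelial cell line from dog kidney. The comparison takes in 4 of the 8 RNA libraries of the series, 2 with each siRNA, which were chosen by the siRNA and the osmolality given in the labels. All cells were transfected with 100 nM siRNA, and the groups at 500 mOsm spent 24 h in growth medium supplemented with raffinose. Neg-siRNA was directed against Slc22a6, which the labels describe as not expressed in these cells, so the control cells were also transfected and also hyperosmotic. The remaining libraries were Neg-siRNA (300 mOsm), without raffinose, and Nfat5-1-siRNA (500 mOsm), another construct against Nfat5, with 2 libraries each. In each group, passage 15 of the line gave replicate 1 and passage 17 gave replicate 2. The total count was 41742578 and 43971253 in the Neg-siRNA (500 mOsm) libraries and 37488252 and 39036966 in the Nfat5-2-siRNA libraries. Effects of a loss of NFAT5 and effects of this construct on other transcripts cannot be told apart in this comparison.

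NFAT5 is a transcription factor of the Rel family. In hyperosmotic medium it raises the transcription of carriers and enzymes that fill the cell with organic osmolytes, small solutes that balance the osmotic pressure without disturbing proteins, and it is known for this role in the renal medulla. An siRNA guides an Argonaute protein to the complementary mRNA, which is then cleaved. Expression is given here as CPM, edgeR's count relative to the library total, which was scaled with TMM factors. For the tests edgeR's quasi-likelihood model was fitted to the 8 libraries together, two-sided. A gene was called lower or higher where its p-value, adjusted over all tested genes by the method of Benjamini and Yekutieli, was under 0.05. Since the libraries are bulk RNA, fewer cells that carry a transcript and less of it per cell cannot be told apart.

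The target itself was examined first. NFAT5 was identified by its position next to NQO1, since no symbol is paired with it, as ENSCAFG00000020254 on chromosome 5 of CanFam 3.1 from 80003598 to 80115099, a gene with 13 exons on the reverse strand. Its mRNA was at 85.9 and 78.5 CPM in the Neg-siRNA libraries and at 72.2 and 73.5 CPM in the Nfat5-2-siRNA libraries. Both Nfat5-2-siRNA libraries lay below both controls, by a small part of their level. The log2 fold change was −0.17 (SE 0.14), which did not pass the test (adjusted p = 1, edgeR), so this mRNA is no check of the siRNA labels. Within passage 15 the log2 ratio was −0.25 and within passage 17 it was −0.09. With library totals in place of the TMM factors the value turned to 0.13, also without a call.

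Of 19835 tested genes, 1464 (7.38%) were lower and 926 (4.67%) were higher with Nfat5-2-siRNA, 12% in all. The median log2 fold change was −1.11 over the lower genes and 1.25 over the higher genes, against −0.03 over all tested genes. At least a 2-fold difference was seen for 889 of the lower and 648 of the higher genes. All 1464 and all 926 changed in the same direction in passage 15 and in passage 17, and their groups did not overlap, which also held for 59.7% of all tested genes. Groups without overlap, where named for single called genes below, therefore describe the values and add nothing to the call. With the replicate number as a block, which takes out the difference between the passages, 3044 genes (15.3%) were lower and 2124 (10.7%) were higher, and these included all genes called without it. The split between lower and higher calls depended on the scaling. With library totals, 742 genes (3.74%) were lower and 1971 (9.94%) were higher, so that 27.3% of the calls were falls against 61.3% with TMM, and the median over all genes moved to 0.25. The TMM factors were 0.883 and 0.908 for Neg-siRNA (500 mOsm) and 1.12 and 1.08 for Nfat5-2-siRNA. Leaving out replicate 1 or 2 of Neg-siRNA gave 601 and 551 lower and 552 and 406 higher genes, and leaving out replicate 1 or 2 of Nfat5-2-siRNA gave 797 and 721 lower and 554 and 552 higher genes, in fits where the lone library was assumed to vary like the other groups.

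**Figure D1:**
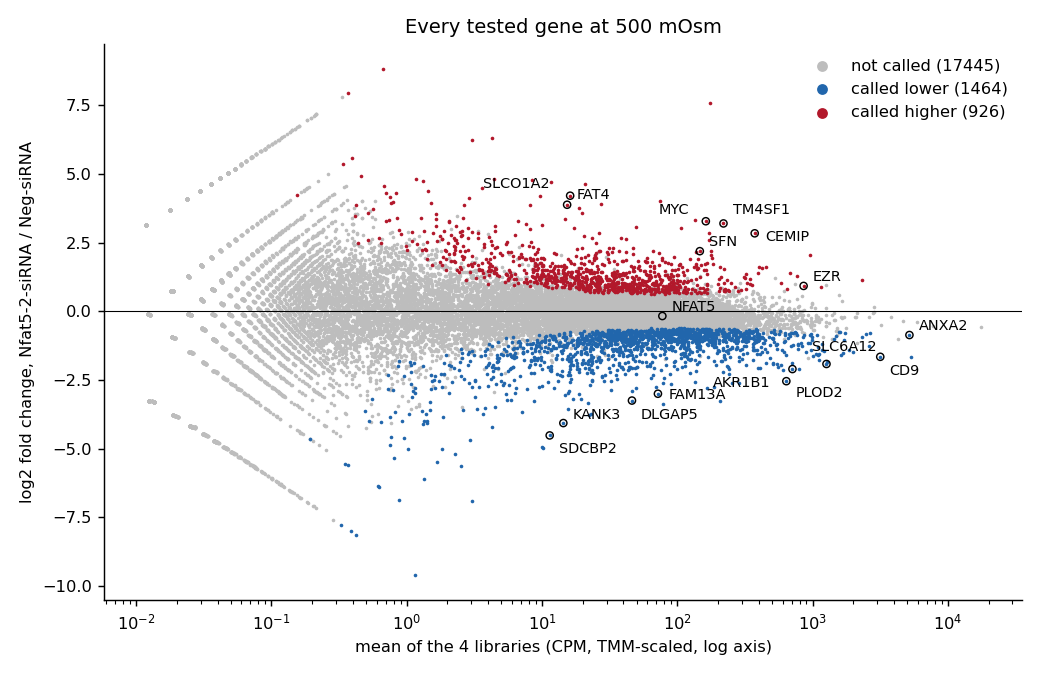
Log2 fold change of Nfat5-2-siRNA over Neg-siRNA at 500 mOsm (vertical axis) against the mean of the 4 libraries in CPM (horizontal log axis), 1 point per tested gene with a mean above 0.01 CPM. Blue points were called lower (1464 genes), red points were called higher (926 genes) and grey points were not called. NFAT5 lies near 0, while MYC and TM4SF1 lie above 3 and SDCBP2 and KANK3 below −4.

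Length, exon number and abundance of the called genes were also described. The median exon length was 2320 bases over the lower genes and 2935 bases over the higher genes, against 2278 bases over the 12800 tested genes, the called genes included, whose mean reached 1 CPM in either group. A median of 10 exons was found over the lower genes and of 8 over the higher genes and over those 12800. The lower genes were also the more abundant, with a median of 55.3 CPM over the 4 libraries, against 25.5 CPM for the higher genes and 29.1 CPM for the 12800 genes. The lower genes were thus close to the 12800 in length and the higher genes equal to them in exon number. These are descriptions with no test, and genes with more counts are called more easily.

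Symbols could be paired with 858 genes, through a supplementary table of the study, and NFAT5 was added by position. The authors had chosen the genes of that table on these same libraries, and describe them as raised by hyperosmolality and lowered by both Nfat5 constructs. The table as used here holds genes of either direction. Of the 858 genes, 516 were called lower, 228 higher and 114 not, and their median log2 fold change was −0.99. List medians near this value do not set a list apart from the genes with a symbol. Counts of called members are likewise to be read beside the 516 lower and 228 higher of the 858. The symbols cover 35.2% of the lower and 24.6% of the higher genes, and list members outside the table were not analysed here. The counts of list members below therefore describe which members changed and are not independent evidence that a list changed.

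The organic osmolyte genes were lower in both passages. All 5 of the 22 listed carriers and enzymes that could be matched were called lower, by −2.45 to −1.47 on the log2 scale, with a median log2 fold change of −1.97 against −0.99 over the 858 genes with a symbol and −0.03 over all tested genes. SLC6A12, the carrier for betaine, was at 2140.0 and 1865 CPM with Neg-siRNA and at 565 and 494 CPM with Nfat5-2-siRNA. SLC6A6, the taurine carrier, was at 3351 and 2449 CPM and at 1179 and 918 CPM, respectively. For AKR1B1, the aldose reductase that makes sorbitol from glucose, the values were 1116 and 1186 CPM against 276 and 259 CPM. The Nfat5-2-siRNA libraries were lower than both controls for each of the 3 genes. The log2 ratio of SLC6A12 was −1.92 in passage 15 and in passage 17, that of SLC6A6 was −1.51 and −1.42, and that of AKR1B1 was −2.01 and −2.19. ISYNA1 (chromosome 20, 44595241 to 44599380), which makes the precursor of myo-inositol from glucose 6-phosphate, was 5.45-fold lower, at 152 and 118 CPM against 25.5 and 24.0 CPM (log2 fold change −2.45, SE 0.17, adjusted p = 3.90e-05, edgeR). It shares exonic bases with another gene, and the reads were counted without regard to strand. SLC5A3, the myo-inositol carrier, was the least counted of the 5, at 19.0 and 11.9 CPM against 4.47 and 3.41 CPM. Without replicate 1 of Neg-siRNA 2 of the 5 genes were called, without replicate 1 of Nfat5-2-siRNA 3 were, and without replicate 2 of Nfat5-2-siRNA 2 were.

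TMEM184B, a membrane protein of a family related to the organic solute transporter alpha subunit, was at 800.0 and 709.9 CPM with Neg-siRNA and at 364 and 299 CPM with Nfat5-2-siRNA. Both passages showed the fall, with log2 ratios of −1.14 and −1.25.

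Other genes that have been reported as NFAT5 targets moved in both directions. Of 10 matched among 23 listed, 8 were lower and 2 were higher, with a median log2 fold change of −1.04. That median is near the −0.99 of the 858 genes with a symbol, of which 516 were lower and 228 higher. The largest fall was that of AQP1 (chromosome 14, 43592297 to 43605779), a water channel, from 29.1 and 37.3 CPM to 3.07 and 5.12 CPM. Its fall was 8.10-fold, or −3.02 on the log2 scale (SE 0.42, adjusted p = 0.0020, edgeR). CRYAB, a small heat shock protein of the crystallin family, was at 40.6 and 39.0 CPM with Neg-siRNA and at 8.95 and 4.67 CPM with Nfat5-2-siRNA. PLA2G4A, the cytosolic phospholipase that frees arachidonic acid, was at 682 and 588 CPM and at 188 and 117 CPM. S100A4, a calcium-binding protein, fell from 212 and 240.2 CPM to 72.3 and 93.2 CPM. In each of these genes both Nfat5-2-siRNA libraries were below both controls. Other lower members included the sodium pump subunit ATP1B1, the chaperone HSPA1L and the growth factor VEGFA, with log2 fold changes between −1.13 and −0.75. Their calls were lost with library totals and with only the 4 libraries compared. The higher members were MYC and CSF1, described further below. With library totals 4 of the 8 were called lower, and 3 were when any 1 of the 4 libraries was left out.

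**Figure D2:**
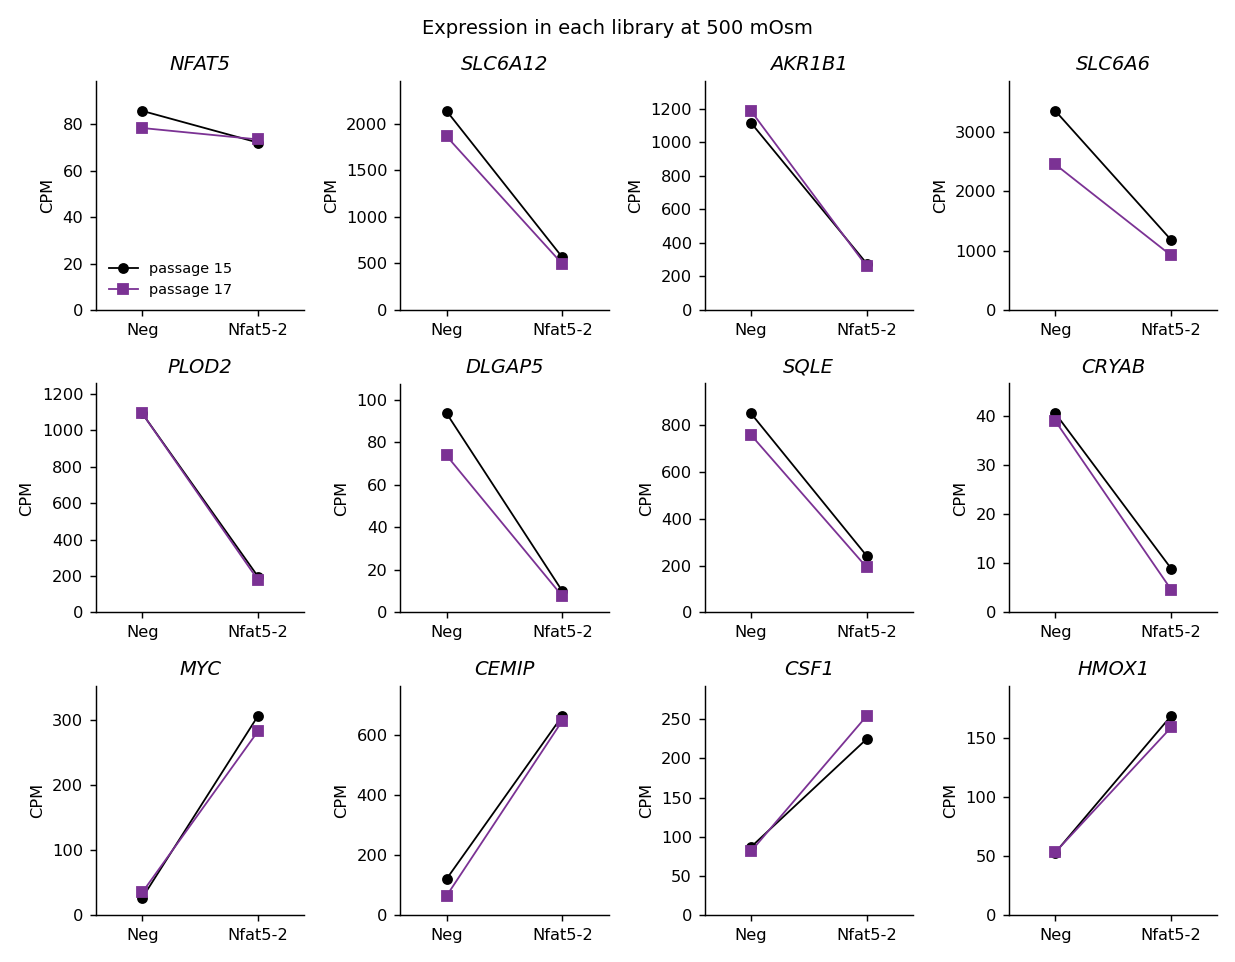
CPM of 12 genes in each of the 4 libraries, with Neg-siRNA and Nfat5-2-siRNA on the horizontal axis and a line joining the libraries of a passage (black circles passage 15, purple squares passage 17); every vertical axis starts at 0. SLC6A12 falls from 2140.0 to 565 CPM in passage 15 and from 1865 to 494 CPM in passage 17, and MYC rises from 26.2 to 306 CPM and from 34.6 to 283 CPM, while NFAT5 stays between 72.2 and 85.9 CPM.

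Genes of mitosis and the spindle were the largest matched group that was lower. Of 37 matched among 58 listed, 36 were called lower, none was higher, and the median log2 fold change was −1.82. DLGAP5 (chromosome 8, 30998323 to 31038850), which bundles spindle microtubules, was at 93.5 and 73.8 CPM with Neg-siRNA and at 9.97 and 7.60 CPM with Nfat5-2-siRNA. This was a 9.51-fold fall (log2 fold change −3.25, SE 0.19, adjusted p = 1.28e-05, edgeR). CCNB2, a cyclin of the G2 to M transition, was at 40.7 and 37.8 CPM and at 5.71 and 6.63 CPM. The kinesin KIF22, which moves chromosome arms, was at 64.2 and 53.8 CPM against 10.8 and 12.6 CPM. Its relative KIF23, needed for cytokinesis, was at 119 and 98.7 CPM against 26.5 and 26.0 CPM. Both Nfat5-2-siRNA libraries lay far below both controls in these 4 genes. CENPA, the histone that marks centromeres, fell 7.78-fold and SPAG5, a spindle protein that was not on the list, fell 9.10-fold. The member without a call was CDCA8, with a log2 fold change of −0.67 (adjusted p = 0.0578, edgeR), which was called with the block. The 36 calls became 35 with library totals and between 30 and 35 when a library was left out. For comparison with isosmotic cells, DLGAP5 was at 223 and 259 CPM and CCNB2 at 111 and 161 CPM in Neg-siRNA (300 mOsm), above the hyperosmotic controls, which in turn lay above the Nfat5-2-siRNA libraries.

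All 4 matched genes of DNA replication among 43 listed were lower, by less than most mitotic genes, with a median log2 fold change of −1.19. They were GINS4, a subunit of the replicative helicase, the clamp loader subunit RFC2, DUT, which removes dUTP, and POLD1, the catalytic subunit of DNA polymerase delta. GINS4 was at 58.2 and 53.8 CPM with Neg-siRNA and at 25.5 and 21.8 CPM with Nfat5-2-siRNA. RFC2 was at 66.5 and 65.6 CPM and at 31.2 and 26.2 CPM. For POLD1 the values were 45.1 and 43.1 CPM against 26.2 and 19.3 CPM, without overlap. Without replicate 1 of Neg-siRNA 2 of the 4 were called, and the call of POLD1 was lost with library totals, with only the 4 libraries compared and without replicate 1 or 2 of Neg-siRNA or replicate 2 of Nfat5-2-siRNA.

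Cholesterol synthesis and uptake was lower in 11 of 12 matched genes among 30 listed, with a median log2 fold change of −1.50. SQLE, the squalene epoxidase that acts early in the sterol branch, was at 849 and 757 CPM with Neg-siRNA and at 241 and 192 CPM with Nfat5-2-siRNA (log2 fold change −1.89, SE 0.17, adjusted p = 8.29e-05, edgeR). INSIG1, which retains the sterol sensor in the endoplasmic reticulum, was at 756 and 850.1 CPM and at 186 and 234 CPM. MVD, an enzyme of the mevalonate pathway, was at 456 and 463 CPM against 136 and 142 CPM. The Nfat5-2-siRNA libraries were lower than both controls for each of the 3 genes. TM7SF2, a sterol reductase, fell 4.35-fold. SREBF1, which encodes a transcription factor of lipid synthesis, had a log2 fold change of −0.65 and no call (adjusted p = 0.0542, edgeR), and was called with the block. Without replicate 1 of Neg-siRNA 7 of the members were called lower.

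Fatty acid and triglyceride genes were lower in 6 of 7 matched genes among 21 listed and higher in 1. ACACB, an acetyl-CoA carboxylase, was at 7.22 and 8.54 CPM with Neg-siRNA and at 1.64 and 0.900 CPM with Nfat5-2-siRNA. DGAT2, which makes the last step to triglycerides, was at 59.2 and 50.5 CPM and at 12 and 6.94 CPM. LPIN1, which makes diacylglycerol, was at 164 and 130.2 CPM against 36.0 and 25.2 CPM. The groups did not overlap in these genes, and the median log2 fold change of the list was −1.97. ACLY, which makes cytosolic acetyl-CoA from citrate, fell 2.47-fold. The gene that rose was PLIN2, a coat protein of lipid droplets, from 223 and 209 CPM to 394 and 486 CPM, with log2 ratios of 0.82 in passage 15 and 1.22 in passage 17.

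Among genes of glycolysis and the hypoxia response 11 of 12 matched among 39 listed were lower, none was higher, and the median log2 fold change was −1.70. PLOD2 (chromosome 23, 41289828 to 41383170), a lysyl hydroxylase that prepares collagen for cross-linking, was at 1092 CPM in both Neg-siRNA libraries and at 196 and 178 CPM in the Nfat5-2-siRNA libraries. This was a fall of 5.83-fold (log2 fold change −2.54, SE 0.18, adjusted p = 3.92e-05, edgeR). Its relative PLOD1 was at 397 and 367 CPM and at 97.4 and 91.0 CPM. Both Nfat5-2-siRNA libraries were far below both controls for these genes. The glycolytic enzyme PGAM1 was at 1977 and 2045 CPM against 508 and 603 CPM. PFKL, the liver form of phosphofructokinase, was at 319.5 and 346 CPM against 89.9 and 102 CPM, and shares exonic bases with 2 other genes. ENO3, an enolase, had a log2 fold change of −0.69 and no call (adjusted p = 0.10, edgeR), and was called lower with the block. Of the members, 10 were called lower with library totals and when any 1 library was left out.

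Of the listed genes of the extracellular matrix, of integrins and of the TGF-beta response, 14 of 45 were matched, and 11 of these were lower. Among the 858 genes with a symbol 516 were lower. The median log2 fold change of the list was −1.32, against −0.99 over those 858. HTRA1, a secreted serine protease, was at 397 and 465 CPM with Neg-siRNA and at 124 and 149 CPM with Nfat5-2-siRNA. The integrin subunits ITGB3 and ITGA2 fell 2.78-fold and 2.57-fold. The groups did not overlap in any of these 3 genes, as in every gene called against Neg-siRNA. CEMIP (chromosome 3, 56729184 to 56786497), which takes part in the breakdown of hyaluronan, was the member that rose. It was at 119.8 and 63.6 CPM with Neg-siRNA and at 663 and 647 CPM with Nfat5-2-siRNA, a 7.14-fold rise (log2 fold change 2.84, SE 0.34, adjusted p = 0.000759, edgeR). COL6A1 and LTBP1 had log2 fold changes of −2.25 (SE 0.51) and −0.86 (SE 0.23) and no call, and were called with the block. With library totals 8 members were called lower, and leaving out a library gave between 5 and 7.

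Genes of the heat shock list, chaperones and a transcription factor, were lower in 5 of 6 matched genes among 39 listed, with a median log2 fold change of −1.32. HSF2, a heat shock transcription factor, was at 71.8 and 72.2 CPM with Neg-siRNA and at 18.8 and 16.4 CPM with Nfat5-2-siRNA. HSPH1, a large chaperone that works with HSP70, was at 2661 and 2299.8 CPM and at 1089 and 658 CPM. DNAJB1, another HSP70 partner, was at 172 and 182 CPM against 98.6 and 86.4 CPM. Both Nfat5-2-siRNA libraries were below both controls in each gene, and HSPH1 fell further in passage 17 (log2 ratio −1.81) than in passage 15 (−1.29). HSP90B1, the HSP90 of the endoplasmic reticulum, had a log2 fold change of −1.0 and no call (adjusted p = 0.0757, edgeR), and was called lower with the block. With library totals 3 members were called, without replicate 1 or 2 of Neg-siRNA 2 and 2 were, and without replicate 1 or 2 of Nfat5-2-siRNA 4 and 1 were.

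Genes of the endoplasmic reticulum stress response were lower in 6 of 7 matched genes among 34 listed, with a median log2 fold change of −0.87. Over the 858 genes with a symbol the median was −0.99, and 516 were lower. ERO1A, an oxidase for disulfide bonds in the endoplasmic reticulum, was at 1315 and 1250.4 CPM with Neg-siRNA and at 326 and 277 CPM with Nfat5-2-siRNA (log2 fold change −2.09, SE 0.17, adjusted p = 5.97e-05, edgeR). It shares exonic bases with 2 other genes of the annotation. EDEM1, EDEM2 and EDEM3, which direct misfolded glycoproteins to degradation, were lower together, by 1.83-fold, 2.61-fold and 2.40-fold. The call of EDEM1 was lost with library totals, with only the 4 libraries compared and when some single libraries were left out. That of EDEM3 was lost without replicate 1 of Neg-siRNA or replicate 2 of Nfat5-2-siRNA. EIF2AK3, a stress kinase of the same compartment, had a log2 fold change of 0.85 and no call (adjusted p = 0.0542, edgeR), and was called higher with the block. With library totals 3 members were lower, and leaving out a library gave between 2 and 4.

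Oxidative defence genes went both ways. Of 6 matched among 29 listed, 4 were lower and 1 was higher. The median log2 fold change of −0.99 was that of the 858 genes with a symbol, of which 516 were lower and 228 higher. ME1, the malic enzyme that yields NADPH, was at 1119.9 and 728 CPM with Neg-siRNA and at 271 and 199.7 CPM with Nfat5-2-siRNA. NQO1, a quinone reductase and the neighbour of NFAT5 on chromosome 5, was at 808 and 887 CPM and at 422 and 349 CPM. PIR, an iron-binding nuclear protein that shares exonic bases with another gene, and the catalase gene CAT fell 2.06-fold and 1.91-fold. HMOX1, heme oxygenase 1, rose from 52.8 and 53.1 CPM to 169 and 159 CPM, a 3.09-fold difference. For HMOX1 and the lower genes alike, both Nfat5-2-siRNA libraries lay on the same side of both controls. TKT, transketolase, had a log2 fold change of −0.67 and no call (adjusted p = 0.0543, edgeR), and was called lower with the block. With library totals 3 members were lower and without replicate 2 of Neg-siRNA 2 were. The call of CAT was lost with library totals, with only the 4 libraries compared and without replicate 1 or 2 of Neg-siRNA or replicate 1 of Nfat5-2-siRNA.

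The metallothioneins MT1X, MT2A and MT1E, small proteins that bind zinc and copper, were all lower. MT1X was at 1585 and 1865 CPM with Neg-siRNA and at 486 and 516 CPM with Nfat5-2-siRNA. MT2A was at 819 and 900.2 CPM and at 320.4 and 335 CPM. MT1E was at 133 and 189 CPM against 44.9 and 55.5 CPM. The groups did not overlap, but reads can be split between these similar genes, so their counts are uncertain. The zinc carrier SLC39A4 had a log2 fold change of 1.1 (SE 0.30) and no call (adjusted p = 0.158, edgeR), and was called higher with the block.

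Ion transport genes were lower in 8 of 9 matched genes among 37 listed, none was higher, and the median log2 fold change was −0.95. The 858 genes with a symbol had a median of −0.99, and 516 of them were lower. ATP1B3, a beta subunit of the sodium pump, was at 388 and 309.6 CPM with Neg-siRNA and at 129.9 and 115 CPM with Nfat5-2-siRNA. STK39, a kinase that regulates cation-chloride carriers, was at 56.4 and 70.5 CPM and at 27.4 and 26.4 CPM. SLC12A7, a potassium-chloride carrier, was at 226 and 248 CPM against 122 and 133 CPM, and AQP1 is given above. The Nfat5-2-siRNA libraries were below both controls in these genes. KCNJ15, a potassium channel, had a log2 fold change of −1.17 and no call (adjusted p = 0.0516, edgeR), and was called lower with the block. With library totals 4 members were called lower, and leaving out a library gave between 2 and 4.

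Of the junction genes, 4 of 33 listed were matched. DSC3, a desmosomal cadherin, was at 494 and 469 CPM with Neg-siRNA and at 249.6 and 243 CPM with Nfat5-2-siRNA. CDH3, P-cadherin, and PKP4, a plakophilin, fell 1.81-fold and 1.72-fold. CLDN1 (chromosome 34, 22302592 to 22319496), a sealing claudin of tight junctions, rose from 13.6 and 9.59 CPM to 106 and 36.3 CPM. Its rise was large in both passages, with log2 ratios of 2.97 in passage 15 and 1.92 in passage 17, although the Nfat5-2-siRNA libraries differed widely from each other. The log2 fold change was 2.62 (SE 0.39, adjusted p = 0.00344, edgeR), and without replicate 2 of Neg-siRNA it was no longer called (adjusted p = 0.0810, edgeR). The calls of CDH3 and PKP4 were lost with library totals, DESeq2's size factors, filterByExpr and only the 4 libraries compared, and without any 1 of these 4, and that of CDH3 also with upper-quartile factors. The call of DSC3 was lost with only the 4 libraries compared.

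**Figure D3:**
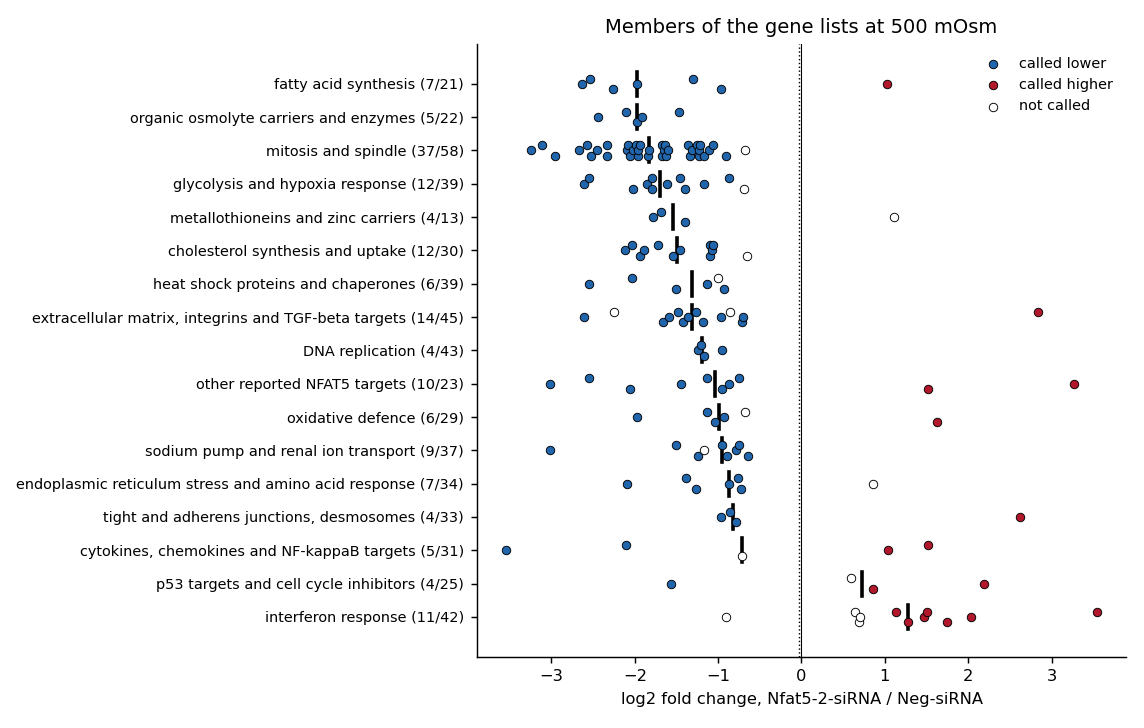
Log2 fold change of every matched member of the 17 gene lists with at least 4 matched members (horizontal axis), with the lists on the vertical axis and the matched and listed members in brackets. Blue points were called lower, red points higher and open points not, the bar marks the list's median and the dotted line the median over all tested genes (−0.03). The list with the highest median is the interferon response (1.28), and those with the lowest are fatty acid synthesis and the osmolyte genes (−1.97 each).

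Interferon response genes were higher in 7 of 11 matched genes among 42 listed, none was called lower, and the median log2 fold change was 1.28. PARP14, an ADP-ribosyltransferase of antiviral defence, was at 4.61 and 4.18 CPM with Neg-siRNA and at 17.2 and 12.3 CPM with Nfat5-2-siRNA (log2 fold change 1.75, SE 0.20, adjusted p = 0.00061, edgeR). DTX3L, a ubiquitin ligase that pairs with PARP9, was at 9.52 and 9.94 CPM and at 31.0 and 23.1 CPM. PARP9 was at 7.22 and 6.53 CPM against 23.2 and 15.8 CPM. ZC3HAV1, an antiviral RNA-binding protein, was at 15.6 and 14.6 CPM against 34.5 and 38.9 CPM. Both Nfat5-2-siRNA libraries exceeded both controls in these 4 genes. PARP9, DTX3L and PARP14 are neighbours on chromosome 33, from 25640915 to 25676775, from 25677076 to 25687590 and from 25763335 to 25801465. Their levels in Neg-siRNA (300 mOsm) were 31.3 and 33.0 CPM for PARP9, 43.1 and 42.4 CPM for DTX3L and 36.1 and 40.6 CPM for PARP14, above those with Nfat5-2-siRNA at 500 mOsm. Members without a call included EIF2AK2 and TRIM25, with log2 fold changes of 0.70 and 0.64, and UBE2L6, with −0.90. With the block 10 members were called higher and 1 lower.

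Of the listed cytokine genes, 5 of 31 were matched, of which 2 were lower and 2 were higher. RARRES2, which encodes the chemoattractant chemerin, was at 15.8 and 41.7 CPM with Neg-siRNA and at 1.69 and 3.24 CPM with Nfat5-2-siRNA. CCL24, an eosinophil chemokine, was at 387 and 389.9 CPM and at 113 and 67.5 CPM. CSF1, the macrophage growth factor, rose from 86.8 and 81.3 CPM to 225 and 255 CPM. These groups did not overlap, and the log2 ratio of RARRES2 was −3.22 in passage 15 and −3.68 in passage 17 although its controls differed. CLCF1, a cytokine of the interleukin-6 family, rose 2.05-fold. TGFB1 had a log2 fold change of −0.71 and no call (adjusted p = 0.0832, edgeR), and was called lower with the block. The call of CCL24 was lost without replicate 1 (adjusted p = 0.0509, edgeR) or 2 (0.0577) of Neg-siRNA or replicate 2 of Nfat5-2-siRNA (0.110), and that of CLCF1 without replicate 1 or 2 of Neg-siRNA or replicate 1 of Nfat5-2-siRNA and with only the 4 libraries compared.

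Of 25 listed p53 targets and cell cycle inhibitors, 4 were matched. SFN, the 14-3-3 sigma protein that holds cells before mitosis, rose from 50.8 and 54.9 CPM to 258 and 223 CPM, 4.55-fold (log2 fold change 2.19, SE 0.15, adjusted p = 3.90e-05, edgeR). TIGAR, a regulator of glycolysis, rose 1.82-fold. BTG1, an antiproliferative factor, went the other way, from 99.7 and 93.5 CPM to 30.4 and 35.1 CPM. In SFN and BTG1 alike the groups were far apart. ZMAT3 had a log2 fold change of 0.59 and no call (adjusted p = 0.195, edgeR), and was called higher with the block. Without replicate 1 or 2 of Neg-siRNA or replicate 1 of Nfat5-2-siRNA, TIGAR was not called.

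AGO3, an Argonaute protein and the matched gene among 13 listed of the RNA silencing machinery, was at 20.6 and 20.4 CPM with Neg-siRNA and at 35.7 and 46.4 CPM with Nfat5-2-siRNA. It was called higher (log2 fold change 1.0, SE 0.17, adjusted p = 0.00971, edgeR). The call was lost without replicate 1 (adjusted p = 0.0629, edgeR) or 2 (0.0777) of Neg-siRNA and without replicate 2 of Nfat5-2-siRNA (0.112).

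Features of the mitochondrial chromosome, found by their position, were compared as a set of 37. Of the 37, 5 were called lower, a larger share than the 7.38% of all tested genes. None was higher, and their median lay at −0.54 on the log2 scale. With the block 13 of the 37 were lower, also a larger share than the 15.3% of all tested genes. With library totals 1 of the 37 was, against 3.74% of all tested genes. These shares were not tested. The mitochondrial share of all counts was 4.39% and 5.87% with Neg-siRNA and 4.36% and 4.65% with Nfat5-2-siRNA, and these ranges overlap.

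The largest falls among genes with a symbol whose mean reached 10 CPM in either group were those of SDCBP2 and KANK3. SDCBP2 (chromosome 24, 19686909 to 19695543), the adaptor protein syntenin-2, was at 21.2 and 22.5 CPM with Neg-siRNA and at 0.976 and 0.924 CPM with Nfat5-2-siRNA, 22.9-fold lower (log2 fold change −4.52, SE 0.32, adjusted p = 3.91e-05, edgeR). KANK3 (chromosome 20, 52903547 to 52912871), a protein of the KANK family linked to the actin cytoskeleton, was at 25.0 and 29.3 CPM and at 1.48 and 1.75 CPM, 16.8-fold lower. In both genes the replicates of a group were close and the groups far apart. ADGRF4, an adhesion receptor coupled to G proteins, fell 12.8-fold and more in passage 17 (log2 ratio −4.27) than in passage 15 (−3.28). FAM13A was at 148 and 107 CPM with Neg-siRNA and at 17.2 and 14.7 CPM with Nfat5-2-siRNA, and CYP4B1, a cytochrome P450, was at 59.1 and 55.3 CPM and at 9.33 and 6.42 CPM. CLCN4, a chloride and proton exchanger of endosomes encoded on chromosome X, fell 8.28-fold, and MEGF11, a receptor with EGF-like domains, fell 7.15-fold. RARRES2, DLGAP5, SPAG5, AQP1 and CENPA, described above, complete the 12 largest falls at this level. A larger fall was that of ENSCAFG00000038731 (chromosome 17, 457214 to 458621), which has no symbol and was chosen after its values were seen, from 16.9 and 22.8 CPM to 0.524 and 0.734 CPM.

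The largest rises at the same level included MYC, AKAP12 and TM4SF1. MYC (chromosome 13, 25200392 to 25205878), a transcription factor of growth and proliferation, was at 26.2 and 34.6 CPM with Neg-siRNA and at 306 and 283 CPM with Nfat5-2-siRNA, 9.68-fold higher (log2 fold change 3.28, SE 0.19, adjusted p = 1.28e-05, edgeR). AKAP12, a scaffold for protein kinases, was at 29.1 and 19.7 CPM and at 284 and 206 CPM. TM4SF1, a membrane protein with 4 membrane-spanning stretches, was at 37.7 and 48.6 CPM against 414 and 377 CPM. Each Nfat5-2-siRNA library was several times as high as either control in these 3 genes. THBD, thrombomodulin, was at 21.5 and 24.2 CPM and at 149 and 228 CPM, and TTLL4, a polyglutamylase of tubulin, was at 9.63 and 11.1 CPM and at 52.6 and 80 CPM. SORBS2, an adaptor at actin fibres, was at 4.10 and 2.03 CPM against 45.9 and 27.1 CPM. The protocadherin gene FAT4 was at 1.93 and 1.98 CPM against 28.9 and 28.5 CPM. For SLCO1A2, a carrier of organic anions, the rise was from 0.732 and 2.55 CPM to 33.1 and 28.2 CPM, with log2 ratios of 5.50 in passage 15 and 3.46 in passage 17. SMPD3, a neutral sphingomyelinase, and CALHM1, a channel of the calcium homeostasis modulator family, rose 9.75-fold and 8.98-fold from under 2 CPM, and CEMIP and CLDN1 are given above.

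**Figure D4:**
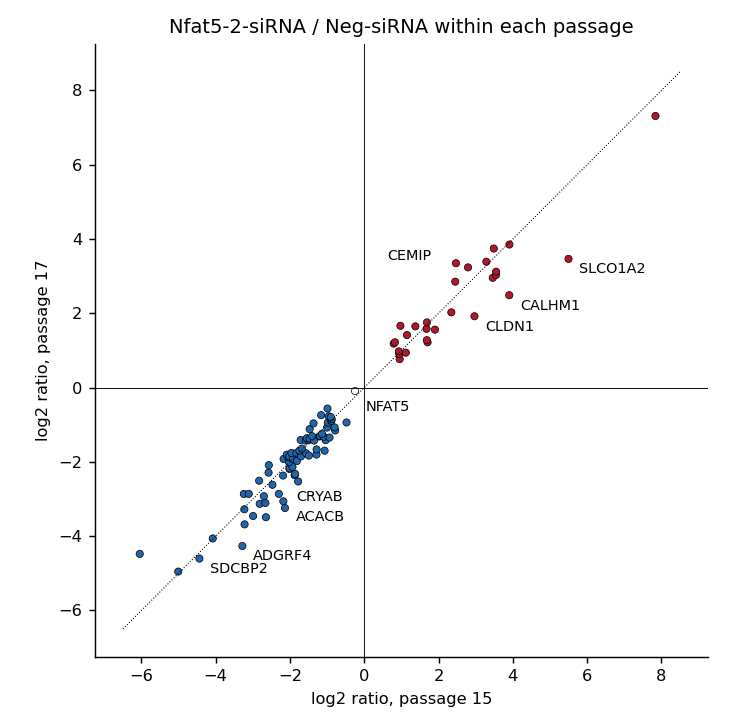
Log2 ratio of Nfat5-2-siRNA over Neg-siRNA at 500 mOsm within passage 15 (horizontal axis) and within passage 17 (vertical axis) for the genes named by the rule and 3 without a symbol; the dotted line marks equal ratios, blue and red points were called lower and higher, and the open point is NFAT5, not called. Every called gene lies in the lower left or upper right quadrant. For some of them the rule required the same direction in both passages, so the quadrants are no test of agreement between passages. SLCO1A2 (5.50 and 3.46) lies far from the line.

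The highest rise among genes whose mean reached 10 CPM in either group was that of ENSCAFG00000002142 (chromosome 10, 40655065 to 40677956, 11 exons), which has no symbol here and was chosen after its values were seen. It was at 1.71 and 1.88 CPM with Neg-siRNA and at 391 and 298 CPM with Nfat5-2-siRNA, 192-fold higher (log2 fold change 7.58, SE 0.58, adjusted p = 4.22e-05, edgeR). Its level was 31.7 and 46.1 CPM with Nfat5-1-siRNA, between that of the controls and that of Nfat5-2-siRNA. The direct comparison of the constructs gave a log2 difference of 3.15, without a call (adjusted p = 0.0598, edgeR) but with a call with the block (adjusted p = 4.24e-27, edgeR).

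Abundance was compared per kilobase of exon. Of the genes with a symbol, the most abundant that were lower were ANXA2, CD9, PGAM1, MT1X and MT2A. ANXA2, the membrane-binding protein annexin A2, was at 6715 and 6701 CPM with Neg-siRNA and at 3655 and 3712 CPM with Nfat5-2-siRNA. CD9, a tetraspanin, was at 4638 and 4965 CPM and at 1649 and 1395 CPM. These are changes of 1.82-fold and 3.15-fold in genes of high abundance, and the groups did not overlap. The call of ANXA2 (adjusted p = 0.0409, edgeR) was lost with library totals, DESeq2's size factors, upper-quartile factors, filterByExpr and only the 4 libraries compared, and without any 1 of these 4. Among the higher genes the most abundant were EZR, GPRC5A, PLIN2, EFHD2 and SFN. EZR, the membrane-cytoskeleton linker ezrin, was at 599 and 587 CPM against 1150.4 and 1096 CPM. GPRC5A, an orphan receptor induced by retinoic acid, was at 121 and 105 CPM against 230.0 and 207 CPM, and EFHD2, a calcium-binding protein, rose 2.53-fold.

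Cell type markers could hardly be examined. Of 12 markers of renal epithelium 1 was matched. Of 8 fibroblast markers THY1 was matched, at 5.89 and 8.04 CPM with Neg-siRNA and at 0.785 and 1.30 CPM with Nfat5-2-siRNA. None of the 6 endothelial and 7 white blood cell markers was matched. The labelled cell type was not checked further, and a part of other cells in the results was not tested.

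The study used more than 1 construct against the same gene, which allows a direct comparison of Nfat5-2-siRNA with Nfat5-1-siRNA at the same dose, osmolality and time. Of the 19835 tested genes, 2 were lower (0.0101%) and 6 were higher (0.0302%) with Nfat5-2-siRNA, 0.0403% in all, while 1567 and 1390 had an unadjusted p-value under 0.05. With the replicate number as a block 505 were lower and 474 were higher, and DESeq2 called 79 and 134. With only the 4 libraries compared, and with edgeR's filterByExpr, no gene was called in either direction. Leaving out a library gave 0 lower genes in each case and between 0 and 3 higher genes.

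The lower genes were ITGB6 and ENSCAFG00000005747. ITGB6 (chromosome 36, 5835308 to 5909634), an integrin subunit of epithelia, was at 29.6 and 33.6 CPM with Neg-siRNA, at 52.4 and 51.8 CPM with Nfat5-1-siRNA and at 21.3 and 17.5 CPM with Nfat5-2-siRNA. Both libraries of the first construct were above both controls and both libraries of the second were below them, with no overlap between any of these groups. The fall of ITGB6 against Neg-siRNA (adjusted p = 0.0468, edgeR) was lost with library totals, DESeq2's size factors, upper-quartile factors, filterByExpr and only the 4 libraries compared, and without any 1 of these 4. The log2 difference between the constructs was −1.43 (adjusted p = 0.0192, edgeR). SYTL2 (chromosome 21, 13688338 to 13759221), which tethers secretory vesicles, was at 41.4 and 42.1 CPM with Neg-siRNA, at 63.4 and 61.6 CPM with Nfat5-1-siRNA and at 133 and 142 CPM with Nfat5-2-siRNA. It was higher with Nfat5-2-siRNA by 1.14 on the log2 scale (adjusted p = 0.0333, edgeR). The other 5 higher genes have no symbol, and the largest difference was that of ENSCAFG00000011265 (chromosome 7, 4156687 to 4282147), at 3.63 and 5.75 CPM with Nfat5-1-siRNA and at 61.4 and 40.6 CPM with Nfat5-2-siRNA. The other lower gene, ENSCAFG00000005747 (chromosome 16, 25213029 to 25213400), was at 62.6 and 80.4 CPM and at 22.8 and 21.0 CPM.

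Several rises described above were larger with Nfat5-2-siRNA without passing this test in the fit without the block. MYC was at 103 and 141 CPM with Nfat5-1-siRNA, below its level of 306 and 283 CPM with Nfat5-2-siRNA, and the log2 difference of 1.27 had an adjusted p-value of 0.0542 (edgeR), or 1.07e-12 with the block. The difference was 1.88 for AKAP12, at 78.2 and 55.1 CPM with Nfat5-1-siRNA (adjusted p = 0.0517, edgeR), and 1.65 for TTLL4, at 17.4 and 24.9 CPM (adjusted p = 0.0517, edgeR). SFN was at 110 and 129 CPM with Nfat5-1-siRNA, and differed by 1.01 (adjusted p = 0.0623, edgeR). The p-values given for AKAP12, TTLL4 and SFN are those without the block. In the osmolyte genes SLC6A12, SLC6A6 and AKR1B1 the log2 differences were −0.18, −0.18 and 0.11, with standard errors of 0.29, 0.21 and 0.22, and none passed the test, with or without the block. Metallothioneins MT1X and MT1E were lower with Nfat5-2-siRNA than with Nfat5-1-siRNA by log2 differences of −0.77 and −0.80, called with the block only (adjusted p = 0.000109 and 1.57e-05, edgeR).

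**Figure D5:**
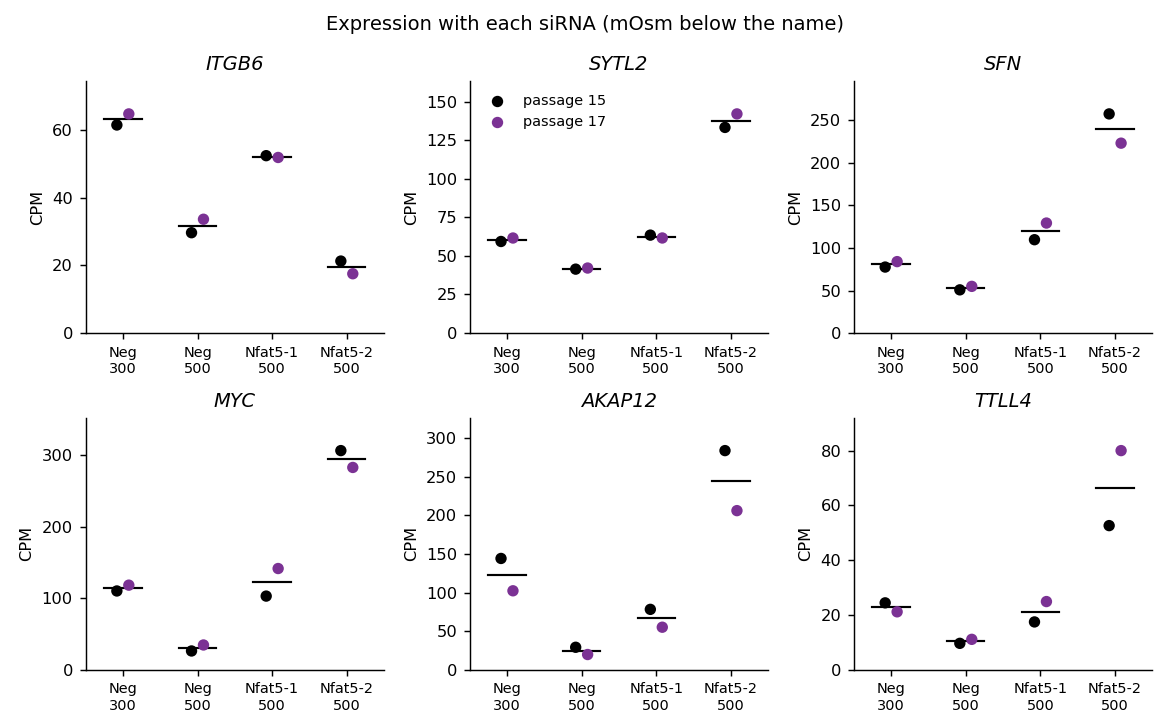
CPM of 6 genes in each library of the 4 groups (horizontal axis, siRNA with the osmolality in mOsm below it); black points are passage 15, purple points passage 17, horizontal lines the mean of 2, and every vertical axis starts at 0. ITGB6 lies above the 500 mOsm control with Nfat5-1-siRNA and below it with Nfat5-2-siRNA, while SYTL2, SFN, MYC, AKAP12 and TTLL4 are highest with Nfat5-2-siRNA.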

How the data were processed

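Paired-end reads of poly(A) RNA were mapped by the authors with HISAT2 2.0.5 to CanFam 3.1 and counted by featureCounts 1.5.1 on exons (Ensembl annotation 92), ignoring strand. The file header names no option for read pairs, so mates appear to have been counted separately. The deposited values are raw counts, beside the exon length per gene. They were tested with the quasi-likelihood test of edgeR 4.0.16 (R 4.3.3, TMM scaling, 4 groups, no block) on genes with 5 or more counts summed over the 8 libraries, with the Benjamini-Yekutieli adjustment. Standard errors were derived from the F statistic. DESeq2 1.42.0, other scalings, filters, samples and adjustments, and each library left out, were tried as alternatives.

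The 20 gene lists, the comparison and the tests were chosen with earlier results of these data known. Genes were named by a rule: NFAT5 and genes of the study's text, the 12 largest falls and rises called with a symbol that reached 10 CPM in the mean of the higher group and kept their direction in each passage, the 5 most abundant called genes per direction, the called members of each list with the smallest p-values (up to 4 per direction), and up to 5 genes with a symbol called between the constructs per direction. List members without a call, other members given with a value, and genes without a symbol were named after their values were seen. Some list members are not reported here. SLC22A6 was not analysed here, and no NFAT family member other than NFAT5 and no mitochondrial gene was matched by symbol.

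Replicate numbers mark the passage in the labels. The difference between replicates correlated between groups, and Pearson's r lay between 0.129 and 0.479 in the 6 pairs of groups (across 12424 genes, which are not independent). Without the block the p-values measure the spread between 2 passages of 1 line. With the block the difference between the passages is taken out, and the p-values rest on the spread that remains. That spread was estimated largely across genes. The weight of this shared estimate, edgeR's prior degrees of freedom, had a median of 108 with the block and 9.19 without it. On counts simulated for this comparison (19853 genes), edgeR recovered 33 of 100 genes changed by 1 on the log2 scale and 99 of 100 changed by 2, and called 0 unchanged genes. On the same counts DESeq2, also without the block, recovered 34 and 97 and called 3 unchanged genes. The fit with the block was run on other simulated counts (19864 genes), with less spread and an added difference between the passages. There edgeR recovered 73 and 100 and called 2 unchanged genes. The fits with and without the block therefore cannot be compared by these values.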

Additional observations from a re-analysis of the deposited data

Results flagged for a closer look

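The effects of the 2 constructs differed by a direct test for ITGB6, with a log2 difference of −1.43 between Nfat5-2-siRNA and Nfat5-1-siRNA (adjusted p = 0.0192, edgeR), and 2 of 2 libraries of each construct showed the direction. For SYTL2 the log2 difference was 1.14 (adjusted p = 0.0333, edgeR), likewise in 2 of 2 libraries. Both calls were lost with filterByExpr, with only the 4 libraries compared and without any 1 of these 4 libraries.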

How the results depend on the processing

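Against Neg-siRNA, where 1464 genes were lower and 926 higher, the counts were 742 and 1971 with library totals, 2200 and 1560 without a filter, 1902 and 1608 with DESeq2, 3043 and 2207 with the Benjamini-Hochberg adjustment, 628 and 537 with only the 4 libraries compared, and 2353 and 2195 with these 4 and the replicate block. Leaving out a library gave from 551 to 797 lower and from 406 to 554 higher genes. With the replicate block on 8 libraries, which pairs the passages, 3044 were lower and 2124 higher, and no gene named above lost its call. Between the constructs, where 2 genes were lower and 6 higher, the counts were 6 and 28 with DESeq2's size factors, 2 and 29 with library totals, 3 and 28 with upper-quartile factors, 110 and 227 without a filter, 79 and 134 with DESeq2, 73 and 113 with the Benjamini-Hochberg adjustment, 505 and 474 with the replicate block, 39 and 101 with only the 4 libraries and the block, and 0 and 0 with filterByExpr (1400 and 1337 at an unadjusted p under 0.05, edgeR) and with only the 4 libraries (1136 and 1489). Leaving out a library gave from 0 to 0 lower and from 0 to 3 higher genes. NFAT5 reversed with library totals, to 0.13, and was between −0.19 and −0.01 under the other settings, without a call under any. The causes were not tested. Of 99 named genes that were called against Neg-siRNA, 75 kept the call whichever library was left out and 24 lost it at least in 1 case (SLC6A12, SLC6A6, SLC5A3, CRYAB, S100A4, HSPH1, DNAJB1, EDEM1, EDEM3, CAT, PIR, DUT, POLD1, STK39, SLC12A7, CDH3, PKP4, CLDN1, ITGB6, ANXA2, CCL24, CLCF1, TIGAR and AGO3). With library totals 8 of the 99 lost it (HSPH1, POLD1, CAT, EDEM1, ANXA2, CDH3, PKP4 and ITGB6). With only the 4 libraries compared 11 of the 99 did (DSC3, POLD1, DNAJB1, CAT, SLC12A7, EDEM1, ANXA2, CDH3, PKP4, ITGB6 and CLCF1). ATP1B1, HSPA1L and VEGFA, also named above, are not among the 99, and they lost their calls under both of these settings.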

Other observations

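The called genes were spread unevenly over the chromosomes. On chromosome X, 54 of 679 tested genes (7.95%) were lower and 6 (0.884%) were higher, against 7.38% and 4.67% over all tested genes. Chromosome 36 held the highest share of lower genes among chromosomes with at least 150 tested genes, 23 of 173 (13.3%), and chromosome 31 the highest share of higher genes, 18 of 225 (8.0%). Chromosome 5, which carries NFAT5, held 48 lower and 50 higher genes of 982. These shares were chosen after their values were seen and are given without a test.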
